A study of Mus musculus with 6 samples.

Results

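RNA levels of the TGF-beta ligands, their receptors and 3 of the SMAD proteins that work below them were examined in muscle stem cells (MuSCs) of control, mdx and Sirt6mKO/mdx mice. The genes were the ligands Tgfb1, Tgfb2 and Tgfb3, the receptors Tgfbr1, Tgfbr2 and Tgfbr3, and Smad2, Smad3 and Smad7. They were taken by symbol and make up 9 of the 22706 genes of the deposited table. Each of the 9 had a mean normalized read count of at least 5 over the 6 libraries, and so all were among the 15915 genes tested. In short, Smad7 was 4.03-fold and Tgfbr3 3.30-fold lower in mdx than in control MuSCs. Both control libraries were high in Xist, an RNA of female cells, so sex and genotype cannot be told apart in comparisons with control. In the Sirt6mKO/mdx-labelled libraries Smad7 was 4.55-fold higher than in mdx, Tgfbr3 was still called lower than in control, a call that was lost without 1 library of either group and under 2 other settings, and no ligand was called. The calls against mdx, that of Smad7 included, were lost under 1 other variance model, as was that of Tgfbr3 in mdx against control.

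MuSCs are the stem cells that regenerate skeletal muscle, and they were sorted by flow cytometry from limb and trunk muscle and used without culture. The control mice were wild type and the mdx mice lack functional dystrophin, a model of Duchenne muscular dystrophy. The third group had the same mdx background plus Sirt6-mKO, a deletion of exons 4 to 6 of Sirt6 by a constitutive Cre under the Pax7 promoter. This Cre acts throughout the skeletal muscle lineage, so the muscle fibres around these MuSCs carry the deletion too. The labels give the strain of all 3 groups as C57BL/6, while the methods name the mdx line as C57BL/10ScSn-Dmdmdx/J, kept on a C57BL/6 background with littermates as controls, so both mdx groups carry an allele from another strain. The mice are described as adult males, with age given in several ranges. Each group held 2 libraries, described in the study's methods as biological replicates. Values are normalized read counts, that is reads per gene divided by a size factor of the library.

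The libraries held between 4396558 and 9745731 reads, as approximated from their size factors. The defining MuSC markers Pax7, Myf5, Cdh15 and Itga7 were present in every library, with values from 1497 to 3258. Of 9 MuSC markers 2 were called lower in mdx than in control, beside 7.34% of all tested genes. These were Sdc4 and Chrdl2. Sdc4 was at 7692 and 6224 in control, against 1100 and 1049 in mdx and 2753 and 2822 in the third group. Chrdl2 was at 684 and 728, 136 and 137, and 354 and 160 in the same order. In the third group 1 of the 9 was called higher than in mdx and 2 lower than in control. Sirt6 itself was at 41 and 32 in control, against 33 and 40 in mdx and 37 and 30 in the third group. A gene-level value includes exons outside the deletion, so it does not check the label, and the third group is named here by its label only. Xist, the RNA of the inactive X chromosome of female cells, was at 16772 and 12950 in control against 7 to 34 in the other 4 libraries. This level goes against the description of the mice as males for both libraries labelled control. Sex of the cells and genotype therefore cannot be told apart in any comparison with control.

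TGF-beta ligands are secreted in a latent complex and, once released, bind the type II receptor TGFBR2, which then recruits and activates the type I receptor TGFBR1. The active receptor phosphorylates SMAD2 and SMAD3, which enter the nucleus with SMAD4, while SMAD7 is induced by the signal and shuts the receptor down. In skeletal muscle TGF-beta is known to restrain myogenic differentiation and to drive fibrosis, and its protein is raised in dystrophic muscle. RNA levels as measured here give neither the amount of active ligand nor the phosphorylation of SMADs.

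Read counts per kilobase of exon were used to rank the genes within a group. In control, Tgfbr3 stood far above the rest at 827 ± 91.7 per kilobase (SD, n = 2). Smad3 at 156 ± 23.4, Tgfbr1 at 152 ± 17.6 and Tgfb3 at 139 ± 11.3 per kilobase followed, and their ranges overlapped from each to the next. Tgfb2 at 90.5 ± 19.1, Smad7 at 55.0 ± 7.35 and Tgfbr2 at 37.3 ± 3.20 per kilobase came next without overlap, and Smad2 at 35.1 ± 8.70 overlapped Tgfbr2. Tgfb1, at 8.83 ± 1.82 per kilobase, was lowest. The top and bottom of this order were the same in all 3 groups, while Smad7 dropped from rank 6 in control to rank 8 in mdx, where its range overlapped that of Tgfb1, and returned to rank 6 in the Sirt6mKO/mdx-labelled libraries. Lengths are unions of annotated exons, so they do not take account of which isoforms were used.

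**Figure D1:**
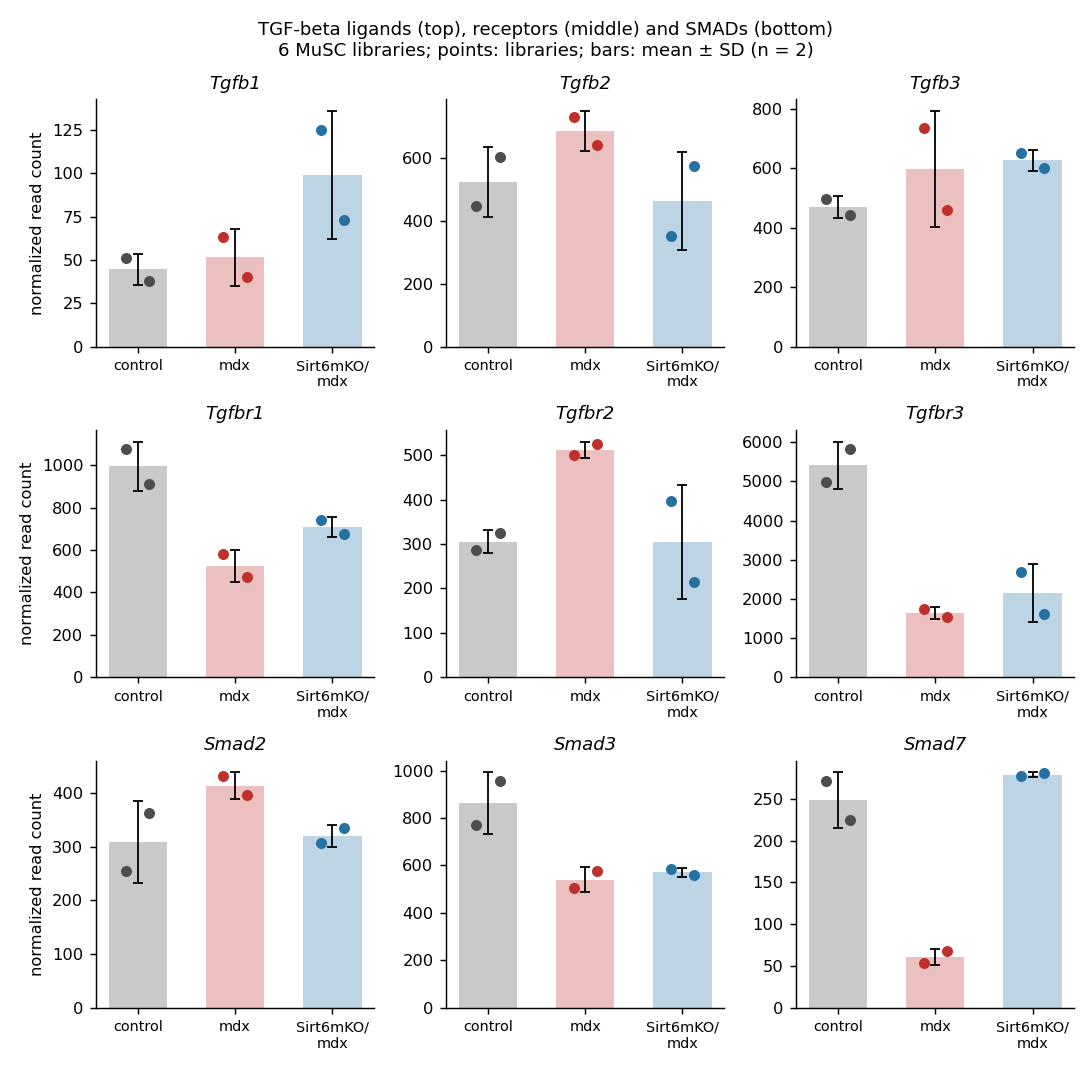
Normalized read count (linear axis from 0) of the 9 genes in each of the 6 libraries, with points for libraries and bars for the mean ± SD of 2 libraries. Both mdx libraries lie far below the other 4 for Smad7 (54 and 68 against 225 to 281), and both control libraries lie far above the other 4 for Tgfbr3 (4986 and 5835 against 1533 to 2674).

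Control and mdx were compared to ask how the pathway's RNA differs in MuSCs of dystrophic mice. A gene was called when limma gave an adjusted p (Benjamini-Hochberg over all tested genes) of at most 0.05 and a log2 fold change of at least 1 in size. Of the 9 genes 2 were called, both lower in mdx, while 14.2% of all tested genes were called, 6.89% higher and 7.34% lower. The median log2 fold change of the 9 was 0.19, against 0.00 over all tested genes. The libraries of both groups did not overlap for 7 of the 9, which also held for 57% of all tested genes. An unadjusted p under 0.05 was reached by 5 of the 9 and by 31% of all tested genes. In bulk RNA, fewer cells of a type and less RNA per cell cannot be told apart.

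The Sirt6mKO/mdx-labelled libraries were compared with mdx to ask what differs with the deletion in dystrophic MuSCs. Here 1 of the 9 genes was called, higher than in mdx, while 8.17% of all tested genes were called, 5.62% higher and 2.54% lower. The median of the 9 was 0.11, against 0.02 over all tested genes, and for 6 of 9 the groups were without overlap, as for 56% of all tested genes. Against control, 1 of the 9 was called in these libraries, lower, beside 7.87% of tested genes called, 5.19% higher and 2.68% lower. The median of the 9 was -0.07, against 0.01, and 6 of 9 were without overlap, as were 51.6% of tested genes. An unadjusted p under 0.05 was reached by 3 of the 9 in each of these comparisons, and by 25.2% and 24.1% of all tested genes. With 1 prior variance for all genes, in place of a prior variance that follows the mean, limma called 0 of all tested genes against mdx, 3156 had an unadjusted p under 0.05, and voom on approximate reads called 918 higher and 343 lower. Every call against mdx given here is thus lost under that setting. The comparisons share libraries pairwise, so their values are given side by side and not as independent results.

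**Figure D2:**
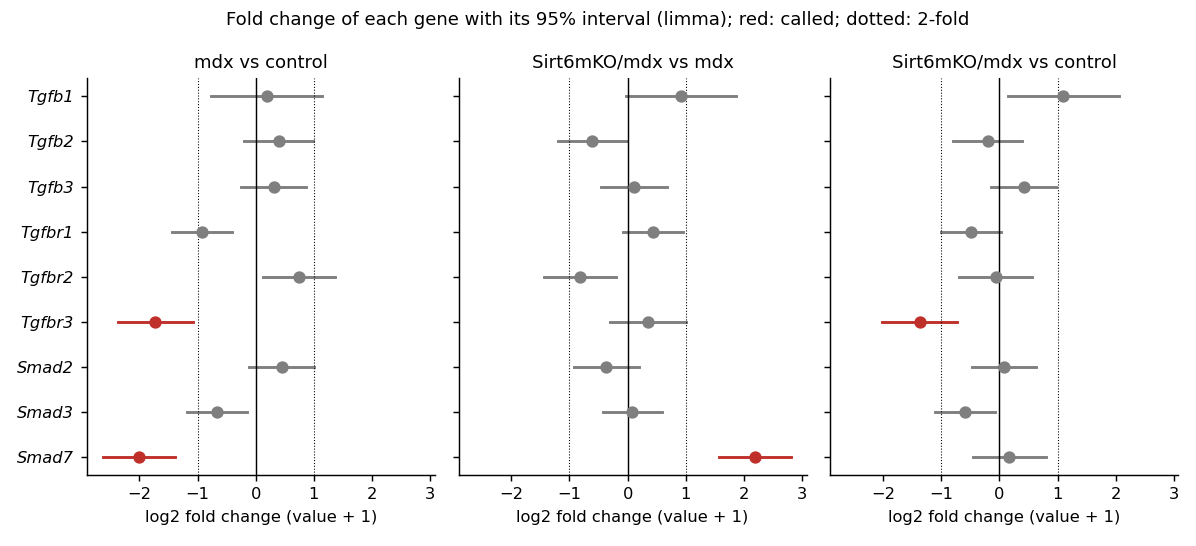
Log2 fold change of each of the 9 genes on the log2(value + 1) scale (horizontal axis) with its 95% interval from limma, in 3 panels for the 3 comparisons, with called genes in red and dotted lines at 2-fold. Smad7 stands at -2.01 in mdx against control and at 2.18 in the Sirt6mKO/mdx-labelled libraries against mdx, and Tgfbr3 stands at -1.72 and -1.37 in the 2 comparisons with control.

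Of the ligands, Tgfb1 (chromosome 7, 25687002 to 25705077, plus strand of GRCm38, as all positions here) encodes the isoform most studied in fibrosis. Its normalized read count was 51 and 38 in control, against 63 and 40 in mdx and 125 and 73 in the Sirt6mKO/mdx-labelled libraries. Control and mdx overlapped, and both libraries of the third group lay above the other 4. The log2 fold change was 0.19 in mdx against control (SE 0.45, adjusted p 0.817), 0.91 in the third group against mdx (adjusted p 0.216) and 1.10 against control (adjusted p 0.144). The 95% interval of the last value ran from 0.15 to 2.05. These values rest on 34 to 96 approximate reads per library, and 34 reads carry a counting interval (95%, exact Poisson) of 23.6 to 47.5, which covers counting error only.

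Tgfb2 (chromosome 1, 186623186 to 186705992, minus strand) and Tgfb3 (chromosome 12, 86056744 to 86079041, minus strand) encode the isoforms with major roles in development. Gene models on the opposite strand share 2.1% of the exonic bases of Tgfb2 and 4.8% and 7.6% of those of Tgfb3, and whether reads were counted by strand was not given in the sources used here, so these values may include reads of the other gene. Tgfb2 was at 446 and 602 in control, against 730 and 641 in mdx and 353 and 573 in the Sirt6mKO/mdx-labelled libraries. Both mdx libraries were above the other 4, by a small margin over 1 control library. The log2 fold change was 0.40 in mdx against control (adjusted p 0.355) and -0.60 in the third group against mdx (adjusted p 0.19).

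Tgfb3 was at 497 and 443 in control, against 735 and 459 in mdx and 652 and 601 in the Sirt6mKO/mdx-labelled libraries. The 2 mdx libraries lay on both sides of those of the third group, and 1 of them lay between the control libraries. Log2 fold changes were 0.31 (adjusted p 0.468), 0.11 (adjusted p 0.843) and, against control, 0.42 (adjusted p 0.366). Over the ligands, limma called 0 of 3 in each comparison. Of all tested genes it called 14.2% in mdx against control, 8.17% in the third group against mdx and 7.87% against control. At such shares 0 of 3 does not show that the ligands were stable. An unadjusted p under 0.05 was reached by 0 of 3 in mdx against control, by Tgfb2 against mdx and by Tgfb1 against control, and voom on approximate reads called 0 of 3 as well. Scaling to equal library totals, which moved the median of all genes to -0.58 in both comparisons of the third group, gave Tgfb2 a call against mdx (-1.23).

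Of the receptor genes, Tgfbr3 encodes betaglycan, a co-receptor that presents ligand, TGF-beta2 above all, to the signalling receptors and also binds inhibin. Its gene lies on the minus strand of chromosome 5, from 107106570 to 107289629. Its normalized read count was 4986 and 5835 in control, against 1738 and 1533 in mdx and 2674 and 1621 in the Sirt6mKO/mdx-labelled libraries. Control stood apart from the other 4 libraries, and mdx and the third group overlapped. Tgfbr3 fell in mdx, 3.30-fold, with a log2 difference of -1.72 (SE 0.30, 95% interval -2.37 to -1.08, adjusted p 0.00136). The value lay between -1.84 and -1.61 with any of the libraries left out, but the call was lost with 1 prior variance for all genes (adjusted p 0.0628).

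In the Sirt6mKO/mdx-labelled libraries Tgfbr3 also fell against control, 2.59-fold, at a log2 difference of -1.37 (SE 0.30) with an adjusted p of 0.0116. This call was lost without control replicate 2 (-1.26, adjusted p 0.0742) and without Sirt6mKO/mdx replicate 2 (-1.01, adjusted p 0.235), which had the lower value of its group. It was also lost with no filter on low values (adjusted p 0.0899) and with 1 prior variance (adjusted p 0.14). Against mdx the difference was 0.35 (95% interval -0.29 to 0.996, adjusted p 0.51), an interval that includes a rise of nearly 2-fold. A same-strand gene model, Gm43422, shares 4.5% of the exonic bases of Tgfbr3.

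Tgfbr1 and Tgfbr2 encode the type I and type II receptors, the kinases that form the signalling complex. They lie on chromosome 4 (47353222 to 47414931, plus strand) and chromosome 9 (116087698 to 116175363, minus strand). Tgfbr1 was at 1077 and 914 in control, against 579 and 471 in mdx and 740 and 674 in the Sirt6mKO/mdx-labelled libraries. All control libraries were above all of the third group, which were above both of mdx, with no overlap between any of the groups. In mdx against control the log2 fold change was -0.92 (SE 0.24, 95% interval -1.44 to -0.41). Its adjusted p of 0.0175 passed the threshold but the size did not, and so Tgfbr1 was not called, although without control replicate 2 it was (-1.04, adjusted p 0.0262). In the third group it was 0.43 against mdx (adjusted p 0.282) and -0.49 against control (adjusted p 0.233), the latter called with equal library totals (-1.09).

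Tgfbr2 was at 287 and 324 in control, against 500 and 525 in mdx and 396 and 214 in the Sirt6mKO/mdx-labelled libraries. Both mdx libraries were above the other 4, and control lay inside the wide range of the third group. The log2 fold change was 0.75 in mdx against control (SE 0.29, 95% interval 0.13 to 1.37, adjusted p 0.0939). It was -0.81 in the third group against mdx (95% interval -1.43 to -0.19, adjusted p 0.0948) and -0.07 against control (adjusted p 0.924). Neither contrast with mdx was called, but with equal library totals the second was (-1.44). Without 1 of the libraries the second value lay between -1.26 and -0.37.

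Neither gene of the signalling pair, Tgfbr1 and Tgfbr2, was called in mdx against control. The sequences before their starts are shown as a description, and a link to RNA level was not tested. They are the 250 bases upstream of each gene start, from RefSeq on GRCm38.p6, printed 5′ to 3′ on the strand of the gene. Capitals mark matches to the GC box GGGCGG, a binding motif of SP1-type factors.

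Tgfbr1 (chr4:47352972-47353221, plus strand): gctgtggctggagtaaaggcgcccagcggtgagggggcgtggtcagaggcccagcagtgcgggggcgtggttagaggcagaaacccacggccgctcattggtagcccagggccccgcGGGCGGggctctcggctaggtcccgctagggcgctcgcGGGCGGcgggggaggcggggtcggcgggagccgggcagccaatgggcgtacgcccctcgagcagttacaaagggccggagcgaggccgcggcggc

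Tgfbr2 (chr9:116175364-116175613, minus strand): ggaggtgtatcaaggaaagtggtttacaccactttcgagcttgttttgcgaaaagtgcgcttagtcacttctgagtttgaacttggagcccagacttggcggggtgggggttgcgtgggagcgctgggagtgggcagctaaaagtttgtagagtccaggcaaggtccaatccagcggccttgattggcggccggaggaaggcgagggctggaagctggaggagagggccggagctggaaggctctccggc

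A window of 300 bases, these 250 and the 50 that follow, was searched on both strands for GGGCGG, for the SMAD-binding letters CAGACA and for the AP-1 motif TGANTCA. The Tgfbr1 window held 2 GC boxes and the Tgfbr2 window held no match to any of the 3 motifs. Promoter entries were matched for 3 other genes of the 9, outside chromosome 18, and their windows held 6 GC boxes (Tgfb1), 1 CAGACA (Tgfb2) and 2 GC boxes (Smad3), and TGANTCA was in none of the 5. Of 32851 mouse promoter windows of this length, 35.7% held the GC box, 21% CAGACA and 7.8% TGANTCA. These matches are descriptions of the letters and were not tested as binding sites.

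The make-up of the receptor set was compared in level per kilobase. Per kilobase of exon, Tgfbr2 took 3.65% and 3.70% of the summed level of the 3 receptors in control, against 14.7% and 17.3% in mdx and 8.48% and 6.93% in the Sirt6mKO/mdx-labelled libraries. The groups did not overlap, with mdx highest and control lowest. The ratio of Tgfbr3 to Tgfbr2 was 21.7 and 22.5 in control, against 4.35 and 3.65 in mdx and 8.45 and 9.48 in the third group. These 3 ranges did not overlap either, and as ratios within a library they do not depend on its scaling. For the ratio of Tgfbr1 to Tgfbr2 the values were 4.70 and 3.54 in control, against 1.45 and 1.12 in mdx and 2.34 and 3.95 in the third group, which overlapped control. These ratios are given as a description with no test, and an exact two-sided permutation test of 2 libraries against 2 cannot give a p below 0.333.

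**Figure D3:**
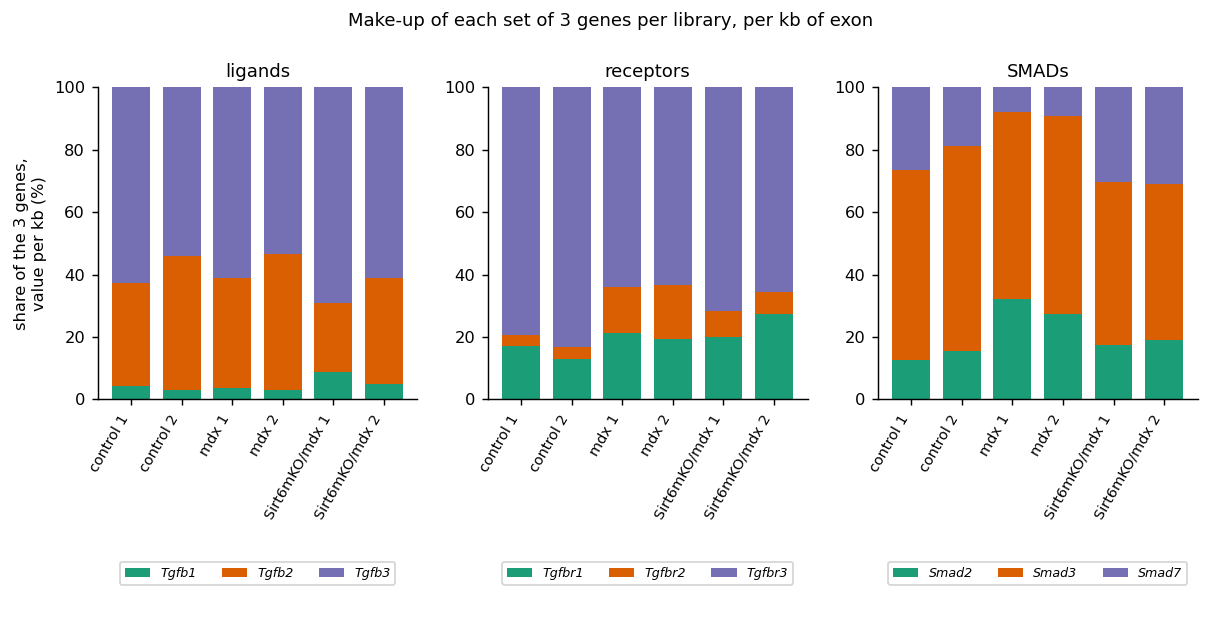
Share of each gene in the summed per-kilobase level of its set of 3 (vertical axis, percent) in each of the 6 libraries, for ligands, receptors and SMADs. Tgfbr2 takes 14.7% to 17.3% of the receptors in mdx and at most 8.48% elsewhere, and Smad7 takes 7.86% to 9.16% of the SMADs in mdx and at least 18.9% elsewhere.

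Smad7 encodes the inhibitory SMAD, which binds the active receptor and recruits ubiquitin ligases to it. Its gene lies on the plus strand of chromosome 18, from 75367529 to 75395935. Its normalized read count was 272 and 225 in control, against 54 and 68 in mdx and 277 and 281 in the Sirt6mKO/mdx-labelled libraries. The mdx libraries lay far below the other 4, and the third group lay just above control. Smad7 fell in mdx, 4.03-fold, with a log2 fold change of -2.01 (SE 0.29, 95% interval -2.63 to -1.39, adjusted p 0.000287).

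In the Sirt6mKO/mdx-labelled libraries Smad7 rose against mdx, 4.55-fold, with a log2 fold change of 2.18 (SE 0.29, 95% interval 1.56 to 2.80, adjusted p 0.000282). Against control the difference was 0.17 (95% interval -0.45 to 0.79, adjusted p 0.77). Leaving out any of the libraries kept both calls, with values from -2.18 to -1.85 and from 2.02 to 2.35. With 1 prior variance for all genes the first was kept (adjusted p 0.0367) and the second was lost (adjusted p 0.0697). With equal library totals the second value was 1.56 and still called. Both comparisons use the same 2 mdx libraries, in which Smad7 had 82 and 87 approximate reads. It was the gene of the 9 with the largest change in each comparison with mdx.

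Smad2 and Smad3 encode the receptor-activated SMADs that carry the signal to the nucleus. They lie on chromosome 18 (76241580 to 76305731, plus strand) and chromosome 9 (63646767 to 63757994, minus strand). Smad2 was at 254 and 362 in control, against 431 and 396 in mdx and 306 and 335 in the Sirt6mKO/mdx-labelled libraries. Both mdx libraries were above the other 4, and the third group lay within the range of control. The log2 fold changes were 0.44 in mdx against control (adjusted p 0.266), -0.37 against mdx (adjusted p 0.411) and 0.08 against control (adjusted p 0.895).

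Smad3 was at 772 and 955 in control, against 504 and 577 in mdx and 585 and 558 in the Sirt6mKO/mdx-labelled libraries. Both control libraries were above the other 4, and mdx and the third group overlapped. The log2 fold change was -0.67 in mdx against control (SE 0.24, 95% interval -1.18 to -0.16, adjusted p 0.0704) and -0.59 in the third group against control (adjusted p 0.149), the latter called with equal library totals (-1.19). The per-kilobase ratio of Smad3 to Smad2 was 4.82 and 4.18 in control, against 1.85 and 2.31 in mdx and 3.03 and 2.64 in the third group, without overlap. Smad7 relative to Smad3 ranged from 0.289 to 0.432 in control, 0.131 to 0.145 in mdx and 0.580 to 0.617 in the third group. These ranges were again without overlap, and the ratio carries the change of Smad7 given above. Of single tested genes, 51.6% to 57% were without overlap in the 3 comparisons. Tgfb1 relative to Tgfb3 overlapped between control (0.05755 to 0.06885) and mdx (0.05751 to 0.05847), and was higher in the third group (0.0815 to 0.1286). Tgfb2 relative to Tgfb3 overlapped between control (0.524 to 0.794) and each of mdx (0.580 to 0.816) and the third group (0.316 to 0.557).

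The genes whose profile over the 6 libraries was most like that of Smad7 and of Tgfbr3 were sought among 9665 genes with a mean of at least 50, by the root mean square difference of centred log2 values. For Smad7 these were Dnaja1 and Runx1, at 0.14 and 0.15. Dnaja1, an HSP40 co-chaperone, was at 4186 and 3610 in control, against 855 and 938 in mdx and 3433 and 3775 in the Sirt6mKO/mdx-labelled libraries. Runx1, a transcription factor, was at 2153 and 1642, 439 and 564, and 1716 and 1893 in the same order. For Tgfbr3 they were Zfp36l1, an RNA-binding protein of mRNA decay, and Sema4d, a semaphorin, at 0.16 and 0.17. Zfp36l1 was at 825 and 942 in control, against 322 and 235 in mdx and 392 and 330 in the third group.

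**Figure D4:**
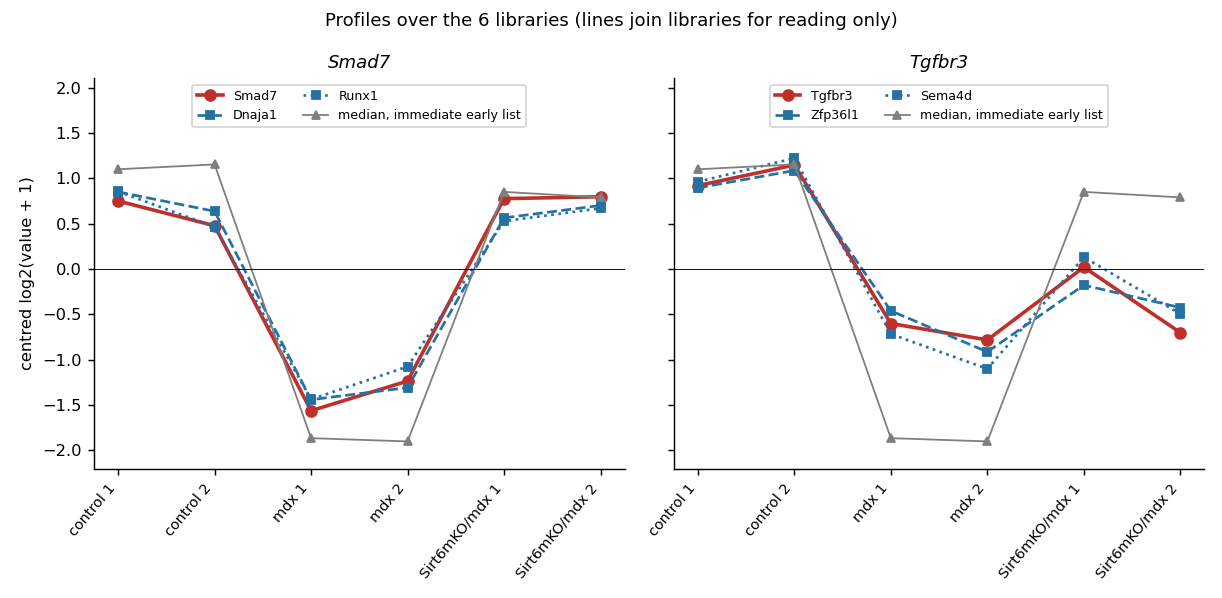
Profiles of Smad7 and Tgfbr3 over the 6 libraries as log2(value + 1) centred on the mean of each gene (vertical axis), with the 2 most alike genes of each and the median of the immediate early list. Smad7 is low in the 2 mdx libraries only, whereas Tgfbr3 is high in the 2 control libraries, and the immediate early list falls and rises with Smad7.

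A list of 15 immediate early and dissociation response genes, such as Fos, Jun, Egr1 and Hspa1a, moved in the same libraries as Smad7. Of these 15, all were called lower in mdx than in control, with a median log2 fold change of -2.83, and all were called higher in the Sirt6mKO/mdx-labelled libraries than in mdx, with a median of 2.77. The calls against mdx came to 13 with no filter and to 0 with 1 prior variance in limma, where all 15 had an unadjusted p under 0.05, and voom called all 15. Against control 2 were called lower, and the median was -0.18. Summed values were 145512 and 156060 in control, against 21818 and 24268 in mdx and 118795 and 108222 in the third group. Such genes respond to the enzymatic release and sorting of MuSCs as well as to signals in the tissue, and their part in the result for Smad7 was not tested.

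Other cell types a MuSC gate can hold were followed by their markers. Per the methods, Sca1+, CD45+ and CD31+ cells were depleted with magnetic beads before the sort, a step meant to remove fibro-adipogenic cells, leukocytes and endothelial cells. Of the genes of these antigens, Ly6a (Sca1) was at 3 and 9 in control, against 79 and 21 in mdx and 65 and 15 in the third group, and Pecam1 (CD31) at 199 and 86, 20 and 47, and 67 and 114. The summed value of 7 fibro-adipogenic markers ranged from 20846 to 27560 in control, 31967 to 39010 in mdx and 21275 to 28803 in the Sirt6mKO/mdx-labelled libraries. That of 6 endothelial markers ranged from 780 to 923, 438 to 440 and 637 to 652, and that of 6 myofibre markers from 5940 to 6761, 1332 to 4421 and 3982 to 9175. The sum of 6 smooth muscle and pericyte markers, most of it Acta2, ranged from 1106 to 1939, 2563 to 3168 and 1439 to 1859, and without Acta2 from 299 to 335, 229 to 331 and 301 to 515, with control and mdx overlapping. The leukocyte and Schwann lists stayed at or below 190 and 50 in every library. Pdgfra, which defines fibro-adipogenic cells, had values of 15 and 59 in control, against 195 and 18 in mdx and 142 and 19 in the third group, which overlapped. Of the fibro-adipogenic list 2 of 7 genes were called higher in mdx than in control, and of the endothelial list 2 of 5 tested genes were called lower. These counts were 1 and 0 with no filter, 0 and 0 with 1 prior variance (2 and 4 with an unadjusted p under 0.05 in limma under both settings) and 1 and 1 with voom. Kdr was at 0 in 1 mdx library, Emcn in both of the third group and the leukocyte marker Ptprc in both control libraries. Of the myofibre list 3 of 6 genes were called lower in mdx than in control (median -1.36) and 2 of 6 higher in the third group than in mdx (median 1.19), the direction of Smad7, although no filter left limma with 0 of 6 in each (2 with an unadjusted p under 0.05) and voom called 4 and 2. Myh1, a fast myosin, was at 724 and 1949 in control, against 340 and 152 in mdx and 990 and 629 in the third group. The endothelial sum was lowest in mdx, as Smad7 was. Tek made up 71.9% to 86.1% of that sum, and without it the sum was 149 to 254 in control, 61 to 90 in mdx and 134 to 183 in the third group, still lowest in mdx, whereas Vwf was at 33 and 37 in mdx and at most 30 elsewhere. The fibro-adipogenic sum was highest in mdx, as Tgfbr2 was, but Col3a1, which was not called (0.57 in mdx against control, adjusted p 0.535), made up 73.2% to 85.2% of it. Without Col3a1 the sum was 4388 to 4762 in control, 5039 to 8193 in mdx and 4270 to 5696 in the third group, and mdx overlapped the third group. The part of these cell types in the results for Smad7 and Tgfbr2 was not tested.

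Of all tested genes 14.2% were called in mdx against control, 8.17% in the third group against mdx and 7.87% against control. Counts in the lists below, as in the marker lists above, are to be read beside these shares. The other genes of the pathway were taken as lists, and no list was tested as a set. The first held 21 genes for the latency and activation of TGF-beta, of which 3 were called higher and 4 lower in mdx than in control (median log2 fold change 0.04). Thbs1, which encodes thrombospondin-1, an activator of latent TGF-beta, was at 1934 and 5337 in control, against 329 and 278 in mdx and 1328 and 1236 in the Sirt6mKO/mdx-labelled libraries. It fell in mdx by 3.40 log2 units (adjusted p 1.62e-05), or by 2.67 without control replicate 2 and 4.14 without control replicate 1, and was higher by 2.08 log2 units in the third group than in mdx (adjusted p 0.00244). Ltbp4, a latent TGF-beta binding protein known as a modifier of dystrophy in mice, fell by 1.23 log2 units (adjusted p 0.00538), from 3764 and 3517 to 1437 and 1675. Itgb8, the beta subunit of an activating integrin, rose by 1.33 log2 units (adjusted p 0.0442), and Bgn, the matrix proteoglycan biglycan, rose by 1.07 log2 units (adjusted p 0.0282).

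In the third group against mdx, 1 of the 21 was called higher, Thbs1, and 4 lower (median -0.18). Bgn fell from 3255 and 3676 to 751 and 1216, by 1.85 log2 units (adjusted p 0.00181). Mmp14, a membrane metalloprotease, fell by 1.55 log2 units (adjusted p 0.00152), and Emilin1, a matrix protein that binds the TGF-beta precursor, fell by 1.21 log2 units (adjusted p 0.011). These counts depended on single libraries. The 7 calls in mdx against control came down to 2 without control replicate 1, 1 without mdx replicate 1, 2 without mdx replicate 2 and 4 without Sirt6mKO/mdx replicate 2. The 5 calls against mdx came down to 2 without mdx replicate 2 and without Sirt6mKO/mdx replicate 2, and all were lost without Sirt6mKO/mdx replicate 1. Of the 4 genes named for mdx against control, Thbs1 alone kept its call whichever library was left out, and Thbs1, Bgn, Mmp14 and Emilin1 each lost that against mdx without Sirt6mKO/mdx replicate 1. With no filter on low values Itgb8 and Bgn lost their calls in mdx (adjusted p 0.163 and 0.124), and Thbs1, Bgn and Emilin1 those against mdx (adjusted p 0.0756 to 0.102). Itgb8 lost its call with a pseudocount of 0.1 too (adjusted p 0.0575). Equal library totals kept the 4 calls against mdx but moved them over 1.5 times, to 1.45 for Thbs1, -2.48 for Bgn, -2.17 for Mmp14 and -1.84 for Emilin1.

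Of 26 tested regulators of the receptors and SMADs, 1 was called higher and 5 lower in mdx (median -0.12), and 3 were called in the third group against mdx, all higher (median 0.02). Bambi, a decoy receptor that blocks signalling, was at 172 and 116 in control, against 22 and 23 in mdx and 145 and 203 in the Sirt6mKO/mdx-labelled libraries. It fell by 2.60 log2 units (adjusted p 0.000292) and then stood higher by 2.88 log2 units (adjusted p 0.000247). Tgif1 and Skil, which encode nuclear corepressors of SMADs, were also lowest in mdx, but with the third group below control. Tgif1 was at 1434 and 1188, 257 and 265, and 822 and 888, and it fell by 2.32 log2 units (adjusted p 1.29e-05) and then was higher by 1.71 log2 units (adjusted p 0.000416). Skil, the gene of SnoN, was at 3397 and 3549, 773 and 630, and 1682 and 1577, and it fell by 2.31 log2 units (adjusted p 2.14e-05) and then was higher by 1.22 log2 units (adjusted p 0.00762).

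The second call of Skil was lost without mdx replicate 2 (1.07, adjusted p 0.0907) and without either of the Sirt6mKO/mdx-labelled libraries (1.17 and 1.27, adjusted p 0.138 and 0.0931), with no filter on low values (adjusted p 0.0628) and with equal library totals (0.59, adjusted p 0.151). Those of Bambi and Tgif1 were kept whichever library was left out and with equal library totals, though at 2.26 and 1.08, and were lost with 1 prior variance (adjusted p 0.0689 and 0.0833), where limma called 0 of the 26 against mdx (6 with an unadjusted p under 0.05) and voom called 3. Eng, the co-receptor endoglin, fell by 1.66 log2 units in mdx (adjusted p 0.013), a call lost without control replicate 2, without either mdx library and with no filter (adjusted p 0.0743). The 6 calls in mdx against control came down to 3 without mdx replicate 1. For the inhibitors Bambi, Tgif1 and Skil, as for Smad7, both mdx libraries lay below the other 4, and since these 3 were chosen by the size of their change this is a description. Elsewhere on the list this held for Ski and Nedd4l, but not for Smad6, Pmepa1, Tgif2 or Ldlrad4. Smad6 was at 53 and 58 in control, against 33 and 55 in mdx and 91 and 108 in the third group.

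In the related activin and myostatin branch, 8 of 12 genes were tested, and 2 rose in mdx. Acvr2a, a type II activin receptor, was at 328 and 339 in control, against 1037 and 806 in mdx and 748 and 706 in the Sirt6mKO/mdx-labelled libraries, and it rose by 1.45 log2 units (adjusted p 0.000865). Inhbb, an activin subunit, rose by 1.29 log2 units (adjusted p 0.00752), a call lost without mdx replicate 1 (0.92, adjusted p 0.147) and with no filter (adjusted p 0.0693). With 1 prior variance limma called 0 of 8 in mdx (Acvr2a, adjusted p 0.0596), 3 had an unadjusted p under 0.05, and voom called 2. Under that setting Ltbp4, Itgb8, Bgn and Eng lost their calls in mdx too (adjusted p 0.0831 to 0.18). In the third group against mdx limma and voom called 0 of 8, and 1 had an unadjusted p under 0.05. The medians of the branch were -0.34 and 0.36 in these comparisons. Against control, the third group had 3 latency and activation genes called lower (median -0.50), 2 regulators called lower (median -0.23) and 2 genes of the activin branch called higher (median 0.21). For the latency, regulator and activin lists in turn, limma called 1, 0 and 0 with no filter, and voom called 3, 2 and 2. With 1 prior variance limma called 0 in each list, where 5, 2 and 2 had an unadjusted p under 0.05. The first count was 1 without Sirt6mKO/mdx replicate 2, and all calls of the other lists were lost without either library of the third group, those of the regulators also without control replicate 2, with 1 left without either mdx library.

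**Figure D5:**
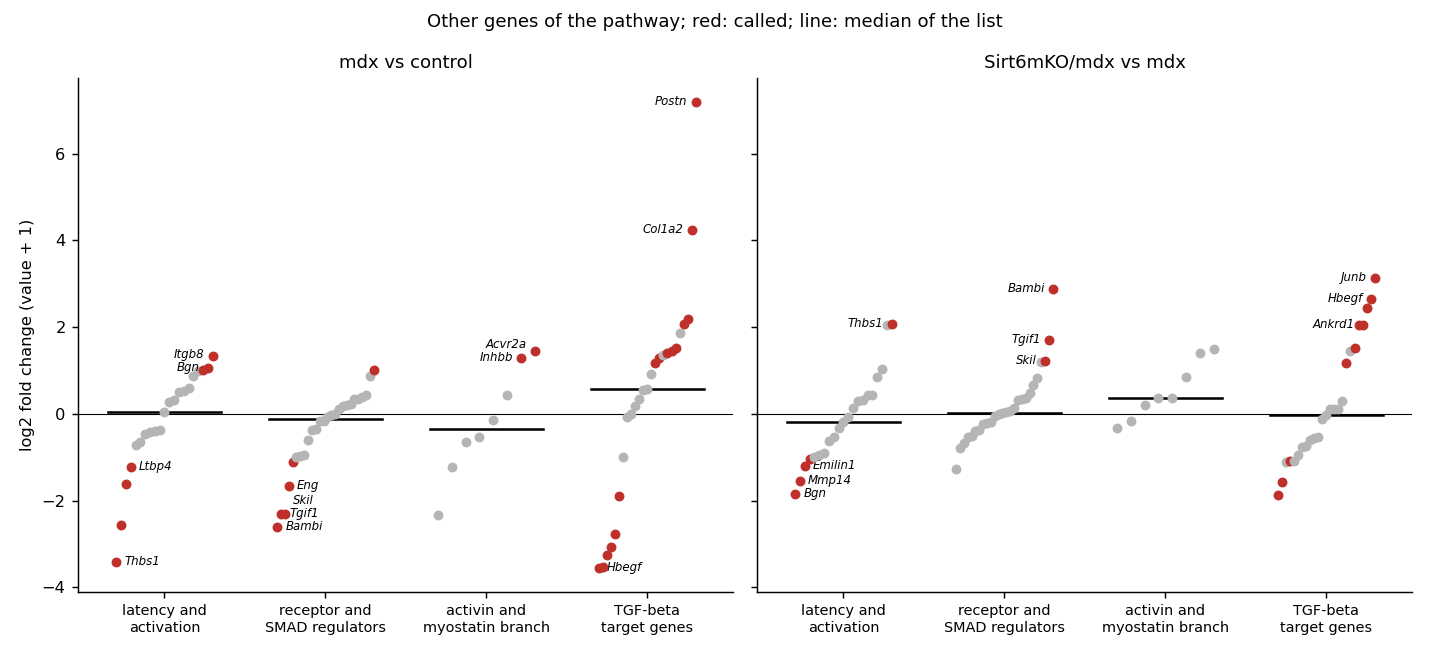
Log2 fold change on the log2(value + 1) scale (vertical axis) of the tested genes of the 4 pathway lists, in mdx against control (left) and the Sirt6mKO/mdx-labelled libraries against mdx (right), with called genes in red and a line at the median of each list. In mdx the target genes spread from -3.56 (Hbegf) to 7.19 (Postn) around a median of 0.57.

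A list of 25 genes known as targets of TGF-beta in various cells held 9 called higher and 6 called lower in mdx (median 0.57). Of all tested genes 6.89% were called higher and 7.34% lower. Col1a1 and Col3a1 are also on the fibro-adipogenic list and Acta2 on the smooth muscle and pericyte list, so these values enter both. Postn, which encodes periostin, was at 5 and 12 in control, against 1384 and 1204 in mdx and 164 and 760 in the Sirt6mKO/mdx-labelled libraries, a rise of 7.19 log2 units (SE 0.53, adjusted p 6.11e-07). Col1a2, a collagen I chain, was at 196 and 416, 4730 and 6265, and 1885 and 3535, a rise of 4.25 log2 units (adjusted p 2.38e-06).

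Among those lower, Hbegf, a ligand of the EGF receptor, was at 136 and 129 in control, against 15 and 7 in mdx and 84 and 58 in the Sirt6mKO/mdx-labelled libraries. It fell by 3.56 log2 units (adjusted p 0.000171) and then was higher by 2.65 log2 units (adjusted p 0.00381), a call lost without mdx replicate 2, without either library of the third group and with no filter (adjusted p 0.0676), and at 2.05 with equal library totals. Junb, also on the immediate early list, was higher by 3.14 log2 units in the third group than in mdx (adjusted p 1.61e-05), from 579 and 795 to 5643 and 6341, or by 2.51 with equal library totals. Targets in the same list thus moved in opposite directions in mdx.

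In the third group against mdx, 7 targets were called higher and 3 lower (median -0.03). Ankrd1, a muscle ankyrin repeat protein, was higher by 2.06 log2 units (adjusted p 0.0261), but its call was lost without any 1 of the 4 libraries compared, with equal library totals (1.43, adjusted p 0.0582), with no filter (adjusted p 0.217), with a pseudocount of 0.1 (adjusted p 0.0502) and with a robust prior variance (adjusted p 0.327). The 10 calls came down to 5 without mdx replicate 1, 4 without mdx replicate 2, 3 without Sirt6mKO/mdx replicate 1 and 4 without Sirt6mKO/mdx replicate 2. Against control, the third group had 6 targets called higher and 4 lower (median 0.51), and the calls came down to 6 without control replicate 2, 3 without Sirt6mKO/mdx replicate 1 and 2 without Sirt6mKO/mdx replicate 2.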

How the data were processed

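MuSC RNA was measured in 6 libraries from total RNA after removal of ribosomal RNA. According to the methods, the authors used Reaper for trimming, STAR 2.4.2a for alignment to GRCm38/mm10 and featureCounts 1.4.5-p1 for reads per gene, leaving out reads on several genes or places, and normalized with DESeq2 1.6.0 (versions from the submitters' processing notes). Use of strand was not given in the sources used here. The deposited values are whole numbers that the authors obtained by dividing counts by a size factor and rounding, so they are treated as a score, called normalized read count. Factors recovered from the values (0.537 to 1.53) gave the approximate reads. Since these are not raw counts, log2(value + 1) was fitted with limma 3.58.1 (R 4.3.3) for all 6 libraries at once, the prior variance following the mean (3 residual degrees of freedom), two-sided, with Benjamini-Hochberg adjustment over the 15915 genes with a mean of at least 5. Fold changes are on that scale and understate those of low genes. The 2-fold and 0.05 thresholds are the study's. Adjusted p-values come from this fit unless another setting or a left-out library is named, and the fit was tested on simulated data.

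The genes, lists and rules were chosen with earlier results of these data known. Named were all 9 genes, from each pathway list the 4 called genes with the largest change in either comparison with mdx (mean of at least 50), and the 2 genes most like each called gene. One gene that the rule names is not reported here. Marker and immediate early genes, and Xist, were given as checks. Alternatives were other pseudocounts, filters, scalings and variance models, voom, a replicate block and leaving out each library. Positions are from GENCODE M21, which held 98.5% of gene identifiers. Promoters were matched for 5 of the 9 genes. Those of Tgfb3 and Tgfbr3 were not used here, and sequence of chromosome 18 is not shown.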

Additional observations from a re-analysis of the deposited data

How the results depend on the processing

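Each value was recomputed under 10 other settings and without each of the 6 libraries. Smad7 in mdx against control kept its call throughout. The 2 calls in that comparison became 1 with 1 prior variance for all genes (Tgfbr3, adjusted p 0.0628). In the Sirt6mKO/mdx-labelled libraries against mdx, the 1 call became 0 of 9 with that setting (Smad7, adjusted p 0.0697; 1 gene with an unadjusted p under 0.05 in limma, and voom called 1) and 3 with equal library totals (Tgfb2 -1.23 and Tgfbr2 -1.44 added). Against control the 1 call became 0 with no filter (Tgfbr3, adjusted p 0.0899; 4 genes with an unadjusted p under 0.05) and with 1 prior variance (adjusted p 0.14; 2 genes), and 3 with equal totals (Tgfbr1 -1.09 and Smad3 -1.19 added), and it ranged from 0 to 1 with a library left out. Equal totals moved the median of all genes to -0.58 in both comparisons of the third group.

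Under equal totals some values turned sign. Against mdx these were Tgfb3 (-0.52), Tgfbr1 (-0.19), Tgfbr3 (-0.28), Smad3 (-0.54) and the median of the receptor and SMAD regulators (-0.60). Against control they were Tgfb3 (-0.19), Smad2 (-0.53), Smad7 (-0.43) and the medians of the activin branch (-0.39) and the targets (-0.094). With no filter the activin median in mdx against control was 0.15. With a library left out, uncalled values that turned sign ranged in mdx against control from -0.14 to 0.51 (Tgfb1) and -0.032 to 0.65 (Tgfb3). Against mdx they ranged from -0.23 to 0.45 (Tgfb3), -0.01 to 0.71 (Tgfbr3) and -0.014 to 0.18 (Smad3), and against control from -0.55 to 0.14 (Tgfb2), -0.51 to 0.38 (Tgfbr2) and -0.18 to 0.33 (Smad2). The medians did so from -0.29 to 0.16 (latency, mdx against control), -0.34 to 0.092 (latency, against mdx) and -0.33 to 0.73 (activin, against control). The causes were not tested.

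Calls over all genes in both comparisons of the third group were fewer when either of its libraries was left out. Over all genes, 1097 were called higher and 1168 lower in mdx against control, 895 and 405 against mdx and 826 and 427 in the third group against control. With no filter these were 417 and 572, 154 and 14, and 169 and 52, with 1 prior variance 181 and 360, 0 and 0 (3156 with an unadjusted p under 0.05 in limma), and 65 and 22, and with equal totals the last 2 comparisons gave 479 and 2932, and 455 and 2692. Counts of the pathway lists moved likewise: the 7, 5 and 3 calls of the latency list were 3, 1 and 1 with no filter and 2, 0 and 0 with 1 prior variance, and those against mdx and control were 10 and 10 with equal totals. The 15, 10 and 10 target genes were 7, 0 and 0 with 1 prior variance, and the last 2 were 3 and 2 with no filter.

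The labels number the replicates, but over all tested genes same-numbered libraries did not deviate together (correlations of -0.13, 0.12 and 0.01 between groups), so the numbers were not taken as pairs. Some single genes did differ alike in mdx and the third group. Replicate 1 was above replicate 2 in both for Tgfb1, Tgfb3, Tgfbr1, Tgfbr3, Pdgfra, Ly6a and Ckm, and below in both for Smad7. Tgfb2, Tgfbr2, Smad2 and Smad3 went different ways in these groups, and the cause was not tested. With a replicate block the fit called 1168 genes higher and 1247 lower in mdx against control, 1050 and 460 against mdx and 935 and 469 in the third group against control, and it left the calls of the 9 genes at 2, 1 and 1. Depth limits Tgfb1 most, at 34 to 96 approximate reads a library, and 2 libraries a group limit every comparison.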
